A study of Homo sapiens with 9 samples.

Results

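The genes described here are 10 components of transforming growth factor β (TGF-β) signaling: the ligands TGFB1, TGFB2 and TGFB3, the activin subunit INHBA, the latency protein LTBP1, the receptors TGFBR1 and TGFBR2, the signal transducer SMAD3, the repressor SKIL and the target gene TGFBI. They were named as a set with earlier results of these data known, and all 10 were found among the 60606 genes of the deposited table. Their RNA levels were compared among 3 related glioblastoma cell lines, with 3 RNA-seq libraries each. U87 is an established human glioblastoma line, grown in serum-containing medium and not irradiated. The GSCs were stem-like cells derived from U87, exposed to repeated cycles of irradiation and kept in serum-free neural stem cell medium with EGF and bFGF. The irradiated GSCs were moved to serum-containing medium to differentiate, and the Diff cells are a culture grown from clones chosen among them. In GSCs versus U87, the irradiation, the medium and the cell state cannot be told apart, and in Diff cells versus GSCs neither can the medium, the cell state and the clonal selection. In Diff cells versus U87, the irradiation, the passage through a stem-like state and the clonal selection likewise cannot be told apart. The study's statistics section speaks in general of 3 or more biological replicates, without naming the RNA-seq. Nothing states that the 3 libraries of a line came from separate cultures. The p-values therefore measure only the spread between these libraries, which may be technical.

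TGF-β is secreted in a latent form: the ligand dimer stays bound to its own propeptide, which is tied to a latent TGF-β binding protein in the matrix or to the membrane protein GARP, and integrins release it. The active ligand brings together a type II and a type I receptor, and the latter phosphorylates SMAD2 and SMAD3, which enter the nucleus with SMAD4 and act on target genes. Several of these targets, among them SMAD7 and SKIL, restrain the pathway in turn. In glioblastoma the pathway is known for its roles in invasion, in the stem-like state and in suppression of immune cells.

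Levels are given as TPM (transcripts of a gene out of 1000000 in the library), which divide out gene length and library total, so that levels of different genes in 1 library can be set side by side. Fold changes are differences of log2(TPM + 1), with standard errors and Benjamini-Hochberg adjusted p-values from limma, fitted to all 9 libraries and the 22909 genes with a mean TPM over 1. A gene was called when the adjusted p was under 0.05 and the log2 fold change was over 1 in size. Of the 10 genes, 9 passed the filter on low values, and INHBA did not. In bulk RNA, fewer cells expressing a gene and less RNA per cell cannot be told apart.

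The clearest differences were in TGFBI, TGFBR2, SKIL and LTBP1. In Diff cells versus U87, TGFBR2 and LTBP1 were called lower, in GSCs versus U87 TGFBR2 and TGFBI were called lower, and in Diff cells versus GSCs SKIL and TGFBI were called higher. Each comparison thus called 2 of the 9 genes tested, or 22.2%. Over all genes tested, 12.3% were called in Diff cells versus U87 (5.92% higher and 6.36% lower), 17.1% in GSCs versus U87 (9.52% higher and 7.53% lower) and 8.01% in Diff cells versus GSCs (2.66% higher and 5.36% lower). By the adjusted p alone, without the limit on size, 6 genes passed in Diff cells versus U87 (3 higher and 3 lower, with 39.4% of all genes passing). In GSCs versus U87 all 9 tested genes passed (2 higher and 7 lower, against 48.6%), and in Diff cells versus GSCs 7 did (6 higher and 1 lower, against 34.8%). The median log2 fold change of the 9 genes was -0.72 in GSCs versus U87 and 0.48 in Diff cells versus GSCs, while the medians of all genes were 0.02 and -0.06. In Diff cells versus U87 the 9 genes had a median of -0.0035, beside -0.04 for all genes. The comparisons share libraries, so their values are given side by side and not as independent evidence.

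**Figure D1:**
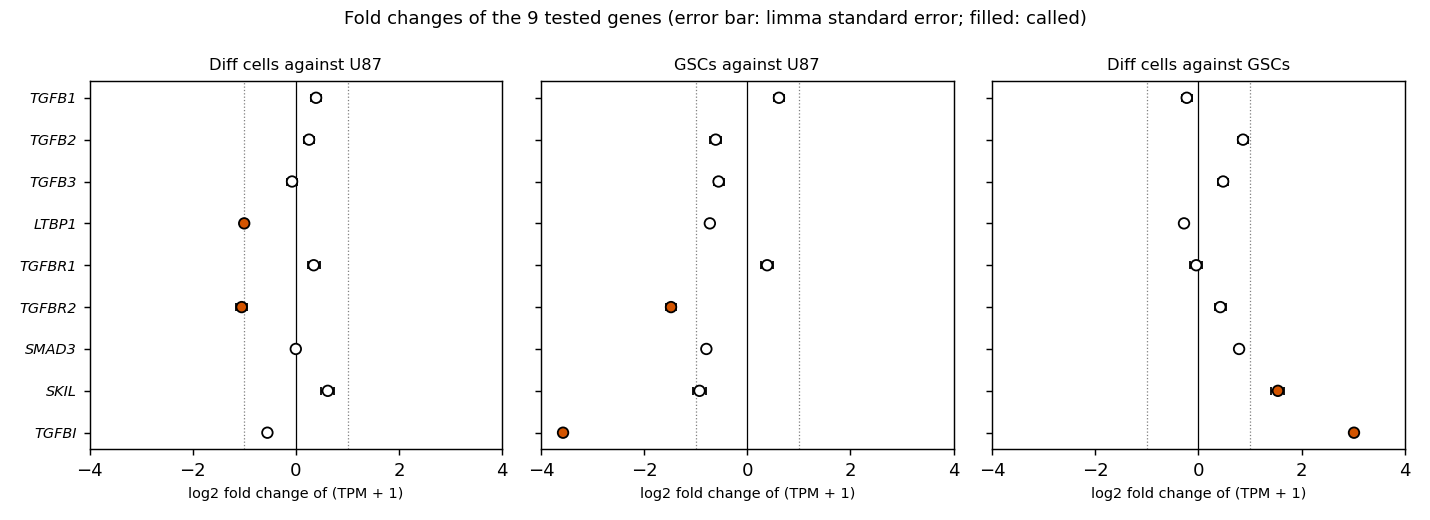
Log2 fold changes of (TPM + 1) of the 9 tested genes in the 3 comparisons, with the limma standard error as error bar, filled points for called genes and dotted lines at a log2 fold change of 1 in either direction. TGFBI lies at -3.57 in GSCs versus U87 and at 3.02 in Diff cells versus GSCs, and TGFBR2 lies beyond -1 in both comparisons with U87.

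TGFB1 was by far the most abundant ligand RNA in all 3 lines. It had 332, 335 and 328 TPM in the U87 libraries, 553, 562 and 425 TPM in GSCs, and 429, 447 and 430 TPM in Diff cells. Every GSC and Diff library lay above every U87 library, while GSCs and Diff cells overlapped because of the GSC library at 425 TPM (replicate 3). The log2 fold change was 0.62 in GSCs versus U87 (SE 0.0974, adjusted p = 0.000817) and 0.39 in Diff cells versus U87 (SE 0.0974, adjusted p = 0.0122). Both are under the limit on size. Diff cells versus GSCs gave -0.23 (adjusted p = 0.108), and -0.36 (adjusted p = 0.000312) without GSC replicate 3.

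TGFB2 and TGFB3 were lowest in GSCs. TGFB2 had 10.9, 9.56 and 9.10 TPM in U87, 6.14, 5.53 and 6.63 TPM in GSCs, and 12.9, 11.3 and 11.5 TPM in Diff cells. All GSC libraries lay below all others, and the log2 fold change was -0.61 versus U87 (adjusted p = 0.00111) and 0.86 in Diff cells versus GSCs (adjusted p = 0.000317). Diff cells and U87 were separated by less, at 0.25 (SE 0.102, adjusted p = 0.0812). That p fell below 0.05 when the libraries were scaled by quantile normalization, by median ratios or without mitochondrial genes and RN7SL1. TGFB3 had 14.01, 15.5 and 18.4 TPM in U87, 10.9, 10.4 and 10.1 TPM in GSCs, and 14.6, 15.4 and 15.0 TPM in Diff cells. GSCs were again below all other libraries (-0.56 versus U87, adjusted p = 0.00147), and Diff cells were 0.48 above GSCs (adjusted p = 0.00542). The Diff values lay inside the range of U87 (-0.08, adjusted p = 0.581), and the sign of that difference turned without U87 replicate 3 (0.03).

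The ligands are encoded at separate places, TGFB1 at chr19:41301587-41353911, TGFB2 at chr1:218346235-218444619 and TGFB3 at chr14:75958099-75982991 (GRCh38, GENCODE 29). Of the exonic bases of TGFB2, 26.6% are shared with TGFB2-OT1 on the same strand, so part of its reads could be assigned to either gene. A smaller share of the exonic bases of TGFB1 (6.64%) and TGFB3 (3.32%) overlaps genes on the opposite strand.

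Because TPM are per length, the 3 ligand RNAs can be summed within a library. The sum was 357, 360 and 356 TPM in U87, 570, 578 and 442 TPM in GSCs, and 457, 473 and 456 TPM in Diff cells. Its mean was 358 ± 2.23 TPM in U87, 530 ± 76.2 TPM in GSCs and 462 ± 9.76 TPM in Diff cells (SD, n = 3). The groups did not overlap with U87, with ratios of means of 1.48 for GSCs and 1.29 for Diff cells. A two-sided exact permutation test gave p = 0.1 for each, the smallest that 3 libraries against 3 allow (0.15 after adjustment over the 3 comparisons). GSCs and Diff cells overlapped (exact permutation p = 0.4). The mean of Diff cells minus that of GSCs was -67.7 TPM, and it ranged from -112 TPM without GSC replicate 3 to -43.8 TPM without GSC replicate 2. TGFB1 supplied 92.8 ± 0.45% of the sum in U87, 96.8 ± 0.542% in GSCs and 94.2 ± 0.191% in Diff cells, with no overlap between any 2 lines (exact permutation p = 0.1 each). TGFB2 made up 2.75%, 1.18% and 2.58% and TGFB3 4.46%, 2.00% and 3.25% in the same order.

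INHBA, at chr7:41667168-41705834, encodes the βA subunit of activin A, a ligand that signals through its own receptors to the same SMADs. It lay at the lower end of the table, with 0.437, 0.522 and 0.581 TPM in U87, 0.316, 0.174 and 0.1005 TPM in GSCs, and 0.126, 0.115 and 0.0666 TPM in Diff cells. No GSC or Diff library reached the lowest U87 library, but at a mean TPM of 0.513 in U87 the gene was below the filter on the mean of all libraries. The differences on the log2(TPM + 1) scale were -0.46 in Diff cells versus U87, -0.34 in GSCs versus U87 and -0.11 in Diff cells versus GSCs. In a limma fit without the filter their adjusted p-values were 0.00396, 0.0127 and 0.423. At levels this close to 0 the added pseudocount of 1 understates a fold change.

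**Figure D2:**
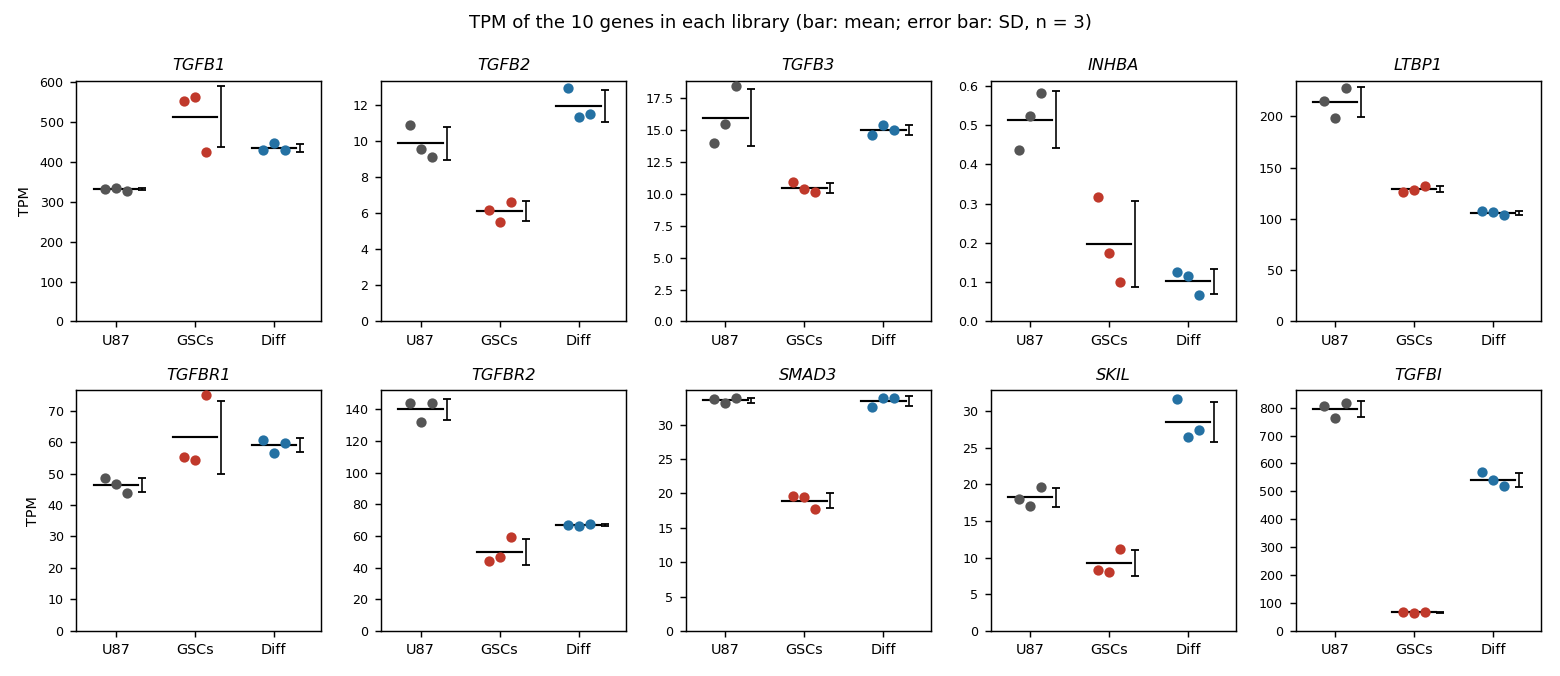
TPM of the 10 genes in each of the 9 libraries, each panel with its own axis from 0. Points are libraries, bars are means and error bars are SD of 3 libraries. TGFBI is at 63.0 to 68.3 TPM in GSCs and over 500 TPM in all U87 and Diff libraries, and TGFBR2 is at 132 TPM or more in U87 and at most 67.6 TPM elsewhere.

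LTBP1, at chr2:32946972-33399509, encodes a matrix protein that binds the latent TGF-β complex. Its levels were 215, 198 and 227 TPM in U87, 126, 128 and 132 TPM in GSCs, and 107, 106 and 104 TPM in Diff cells. The order U87, GSCs, Diff cells held with no overlap between the lines. Mean levels were 2.02-fold lower in Diff cells and 1.66-fold lower in GSCs than in U87, with log2 fold changes of -1.004 (SE 0.0555, adjusted p = 2.2e-06) and -0.72 (adjusted p = 9.7e-06). Diff cells were 0.28 below GSCs (-0.28, adjusted p = 0.00481). The call versus U87 lies at the limit on size: it was lost under the 3 other scalings (-0.97 to -0.95) and without Diff replicate 3, U87 replicate 1 or U87 replicate 3, with a range of -1.06 to -0.95 over all settings.

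The other latency and activation genes did not share 1 direction. Of 9 such genes on a pathway list, 7 were tested. In Diff cells versus U87, 2 were called higher and 0 lower, in GSCs versus U87 2 were called higher and 2 lower, and in Diff cells versus GSCs 3 were called higher and 2 lower. These are 28.6%, 57.1% and 71.4% of the 7, beside 12.3%, 17.1% and 8.01% of all genes tested. LRRC32 encodes GARP, which holds latent TGF-β at the cell surface. It had 8.46, 8.21 and 7.58 TPM in U87, 3.94, 5.37 and 4.82 TPM in GSCs, and 41.3, 41.2 and 36.5 TPM in Diff cells. Every Diff library was thus far above all others, with log2 fold changes of 2.16 versus U87 (adjusted p = 1.18e-06) and 2.84 versus GSCs (adjusted p = 8.9e-07).

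The latent TGF-β binding proteins LTBP3 and LTBP4 differed in opposite directions in GSCs. LTBP3 had 102 ± 7.63 TPM in U87, 16.9 ± 2.19 TPM in GSCs and 87.2 ± 5.81 TPM in Diff cells, a called fall in GSCs versus U87 (-2.53, adjusted p = 1.95e-07) and a called rise in Diff cells versus GSCs (2.31, adjusted p = 1.59e-06). LTBP4 had 39.1 ± 2.67 TPM in U87, 122 ± 22.9 TPM in GSCs and 30.6 ± 1.04 TPM in Diff cells, called higher in GSCs (1.60, adjusted p = 1.08e-05) and lower in Diff cells versus GSCs (-1.95, adjusted p = 1.11e-05). The GSC values of LTBP4 were 129, 141 and 96.8 TPM, and all exceeded every U87 and Diff library. LTBP2 fell in GSCs and in Diff cells by the adjusted p alone, from 71.4 ± 9.16 TPM to 44.4 ± 2.75 and 44.8 ± 2.56 TPM, and was called in neither. It was outside the rule for naming genes and is given as the remaining member of its family.

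ITGAV and ITGB8 encode the subunits of the integrin αvβ8, which binds latent TGF-β. ITGAV had 22.1 ± 0.703 TPM in U87, 8.87 ± 0.628 TPM in GSCs and 25.6 ± 1.29 TPM in Diff cells (-1.23 in GSCs versus U87, adjusted p = 2.01e-06, and 1.43 in Diff cells versus GSCs, adjusted p = 3.21e-06). ITGB8 had 3.10 ± 0.321 TPM in U87, 16.4 ± 3.81 TPM in GSCs and 7.21 ± 0.633 TPM in Diff cells. The β8 subunit RNA was thus highest in the line where the αv RNA was lowest, at 2.07 in GSCs versus U87 (adjusted p = 7.96e-06). ITGB8 was also called in Diff cells versus U87 (1.00, adjusted p = 0.000885) and versus GSCs (-1.07, adjusted p = 0.000894). The first of these calls was lost without Diff replicate 1, Diff replicate 3 or U87 replicate 3. The second was lost under quantile normalization and without GSC replicate 3 (-0.90).

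**Figure D3:**
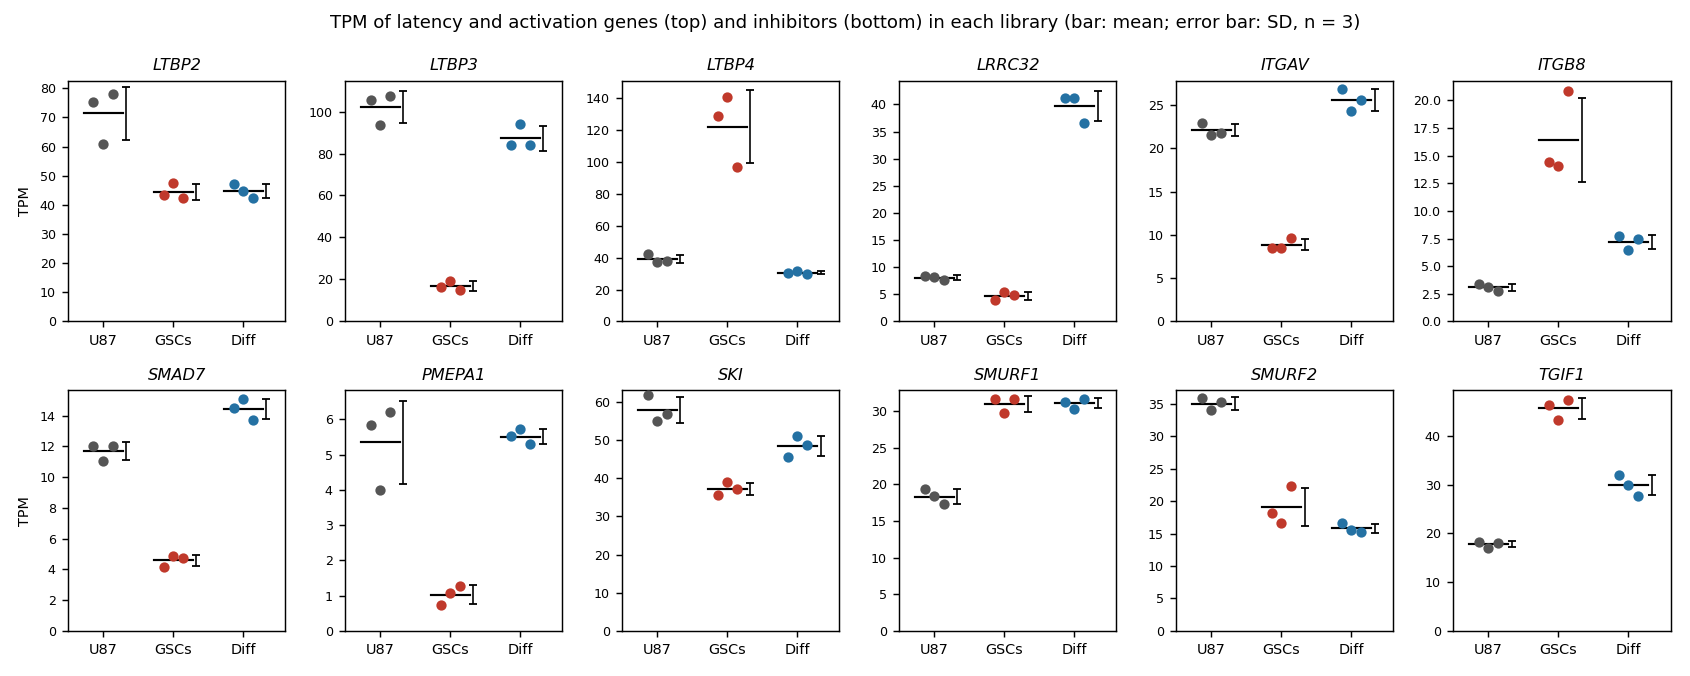
TPM in each library of 6 latency and activation genes (top) and 6 inhibitors (bottom), each panel with its own axis from 0. Points are libraries, bars are means and error bars are SD of 3 libraries. LRRC32 is at 36.5 TPM or more in Diff cells and at most 8.46 TPM elsewhere, and SMAD7 is below 5 TPM in all GSC libraries.

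TGFBR2, which encodes the type II receptor and lies at chr3:30606502-30694142, was highest in U87. It had 144, 132 and 144 TPM in U87, 44.0, 46.5 and 59.5 TPM in GSCs, and 66.7, 66.4 and 67.6 TPM in Diff cells. The 3 lines did not overlap, and U87 lay far above both others. The mean was 2.80-fold lower in GSCs (-1.48, SE 0.101, adjusted p = 5.14e-06) and 2.09-fold lower in Diff cells (-1.05, SE 0.101, adjusted p = 5.58e-05) than in U87. Between the derived lines it was 1.34-fold higher in Diff cells (0.42, adjusted p = 0.0118).

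TGFBR1, the type I receptor at chr9:99104038-99154192, differed little. It had 48.5, 46.6 and 43.9 TPM in U87, 55.3, 54.2 and 74.9 TPM in GSCs, and 60.8, 56.5 and 59.8 TPM in Diff cells. Every U87 library was below every other library, and GSC replicate 3 stood above the rest. The log2 fold change versus U87 was 0.39 in GSCs (adjusted p = 0.0213) and 0.34 in Diff cells (SE 0.114, adjusted p = 0.0417). The latter adjusted p ranged from 0.000919 to 0.119 over the alternative settings and was 0.05 or more in 9 of 18. In GSCs it was 0.05 or more in 3 of 18, and the fold change was 0.24 without GSC replicate 3. Diff cells versus GSCs gave -0.04 (adjusted p = 0.811), with a sign that depended on the scaling and on GSC replicate 3.

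The RNA of the 2 receptor chains was therefore present in different proportions. The ratio of TGFBR2 to TGFBR1 was 2.97, 2.84 and 3.28 in U87, 0.795, 0.859 and 0.795 in GSCs, and 1.10, 1.17 and 1.13 in Diff cells. In U87 the type II receptor RNA was the more abundant, and in GSCs the less abundant, in every library. The means were 3.03 ± 0.228, 0.816 ± 0.0366 and 1.13 ± 0.0389 (SD, n = 3). No 2 lines overlapped (two-sided exact permutation p = 0.1 each, the smallest possible).

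**Figure D4:**
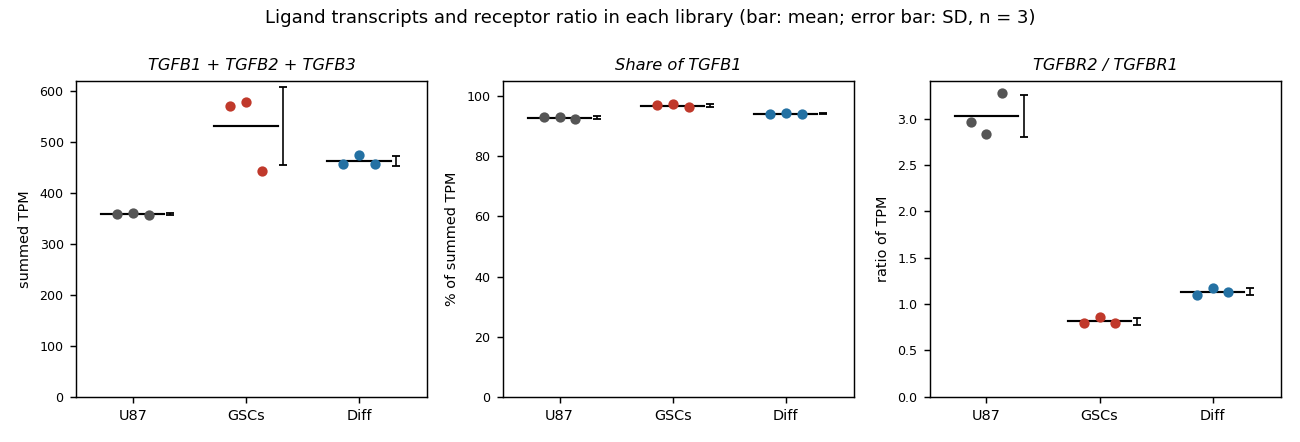
Summed TPM of TGFB1, TGFB2 and TGFB3, the percentage of that sum from TGFB1, and the ratio of TGFBR2 to TGFBR1 TPM in each library, all axes from 0. Points are libraries, bars are means and error bars are SD of 3 libraries. The ratio is between 2.84 and 3.28 in U87, below 1 in GSCs and between 1.10 and 1.17 in Diff cells.

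Of 7 other receptors and co-receptors, 5 were tested. TGFBR3 encodes betaglycan, a co-receptor that presents ligand, above all TGF-β2, to TGFBR2. Its level was 3.54 ± 0.256 TPM in U87, and it was called higher both in GSCs (15.3 ± 0.655 TPM, 1.85, adjusted p = 5.17e-07) and in Diff cells (9.53 ± 0.51 TPM, 1.21, adjusted p = 8.9e-06), the opposite direction to TGFBR2. The co-receptor endoglin (ENG) was called lower in GSCs versus U87 (62.1 ± 6.7 and 28.8 ± 2.64 TPM, -1.08, adjusted p = 2.7e-05), and Diff cells had 45.5 ± 2.81 TPM. ACVR1B, the type I receptor for activin, was called higher in GSCs (16.5 ± 0.673 and 35.9 ± 0.924 TPM, 1.08, adjusted p = 1.65e-06), and Diff cells had 26.2 ± 1.28 TPM. The receptor group had 1 gene called higher and 0 lower in Diff cells versus U87, 2 higher and 1 lower in GSCs versus U87, and 0 called in Diff cells versus GSCs, where 4 of 5 passed by the adjusted p alone (against 34.8% of all genes). The called shares were 20%, 60% and 0% of the 5, beside 12.3%, 17.1% and 8.01% of all genes tested. The summed level of 3 endothelial markers was highest in GSCs, as were TGFBR3 and ACVR1B, while ENG was lowest there. The sum was 2.66 to 4.41 TPM in U87, 16.4 to 18.9 TPM in GSCs and 4.13 to 5.55 TPM in Diff cells. In GSCs most of it was VWF (0.527 TPM in U87, 11.4 in GSCs and 1.74 in Diff cells), and in the other lines PECAM1 (2.77, 6.25 and 2.92 TPM in the same order), while CDH5 stayed under 0.5 TPM in every library. The part of these genes in the receptor values was not tested.

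Among activin branch ligands and antagonists, 5 of 8 genes were tested. Follistatin (FST), which binds and blocks activin, was called higher in GSCs (21.3 ± 2.66 TPM, against 7.34 ± 0.998 TPM in U87, 1.42, adjusted p = 1.46e-05) and lower in Diff cells (8.95 ± 0.448 TPM) versus GSCs (-1.16, adjusted p = 0.00013). INHBE, an activin subunit, was called lower in GSCs (2.56 ± 0.771 TPM, -1.25, adjusted p = 0.00073) and in Diff cells (1.80 ± 0.356 TPM, -1.58, adjusted p = 0.000235) against 7.35 ± 1.05 TPM in U87. No other gene of this group was called in any comparison. The calls were thus 1, 2 and 1 of the 5 in Diff cells versus U87, GSCs versus U87 and Diff cells versus GSCs. These are 20%, 40% and 20%, beside 12.3%, 17.1% and 8.01% of all genes tested.

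SMAD3, which carries the receptor signal into the nucleus and lies at chr15:67063763-67195195, was lowest in GSCs. It had 33.7, 33.1 and 33.8 TPM in U87, 19.6, 19.5 and 17.7 TPM in GSCs, and 32.6, 33.9 and 33.8 TPM in Diff cells. All GSC libraries lay far below the rest, and U87 and Diff cells overlapped. SMAD3 was 1.77-fold lower in GSCs than in U87 (-0.79, adjusted p = 6.97e-06) and 1.76-fold higher in Diff cells than in GSCs (0.79, adjusted p = 2.13e-05), both under the limit on size. Diff cells versus U87 gave -0.0035 (SE 0.0574, adjusted p = 0.971), a difference whose sign changed with the scaling. Of the other 3 transducers, none was called in any comparison, beside 12.3%, 17.1% and 8.01% of all genes in Diff cells versus U87, GSCs versus U87 and Diff cells versus GSCs. By the adjusted p alone 0, 2 and 2 of the 3 passed in the same order, against 39.4%, 48.6% and 34.8% of all genes. The common partner SMAD4 had 6.27 ± 0.387 TPM in U87, 9.03 ± 0.713 TPM in GSCs and 6.30 TPM in Diff cells (0.46 in GSCs versus U87, adjusted p = 0.0036), opposite in direction to SMAD3. SMAD4 was called in no comparison and is given as the partner of SMAD3.

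SKIL, at chr3:170357678-170396835, encodes SnoN, a repressor that binds SMAD complexes on target genes and is itself induced by TGF-β. It had 17.95, 17.0 and 19.6 TPM in U87, 8.29, 8.07 and 11.2 TPM in GSCs, and 31.6, 26.4 and 27.4 TPM in Diff cells. The 3 lines did not overlap, with GSCs lowest and Diff cells highest. SKIL was 3.10-fold higher in Diff cells than in GSCs (1.54, adjusted p = 4.09e-05) and 1.56-fold higher than in U87 (0.62, SE 0.127, adjusted p = 0.00463). In GSCs it was 1.98-fold lower than in U87 (-0.92, adjusted p = 0.000351), just inside the limit on size, and it was called lower under quantile normalization (-1.003) and without GSC replicate 3 (-1.06).

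The bases upstream of SKIL and of TGFBI are shown because these genes gave the 2 calls in Diff cells versus GSCs, and because SMAD proteins bind short DNA boxes in the promoters of their targets. The motif searched was CAGAC on both strands (GTCTG on the other), in windows of 250 bases before to 50 after each RefSeq start (GRCh38.p14). Capitals mark the motif, and the stretches end before the annotated start of the gene, SKIL at chr3:170357465-170357677 and TGFBI at chr5:136028738-136028894, both on the plus strand:
SKIL: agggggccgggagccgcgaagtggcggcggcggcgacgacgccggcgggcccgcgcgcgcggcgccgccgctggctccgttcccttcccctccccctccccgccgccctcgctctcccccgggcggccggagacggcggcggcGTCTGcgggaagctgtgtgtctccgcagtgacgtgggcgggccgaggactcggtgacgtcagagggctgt
TGFBI: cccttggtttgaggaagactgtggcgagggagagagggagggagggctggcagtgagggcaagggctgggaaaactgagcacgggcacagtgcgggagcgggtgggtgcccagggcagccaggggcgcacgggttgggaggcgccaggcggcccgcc
The SKIL stretch holds 1 match, 107 bases before the RefSeq start, and the TGFBI window holds none. The motif is short, and 45.3% of all 35116 promoter windows hold it, beside 14 of 25 windows (56%) of the 10 genes. Several of the 25 windows are alternative starts of the same gene, most of all TGFBR1 and SMAD3, and some overlap. The 25 are thus not independent, and the shares were not tested against each other. A match is a description of these letters only.

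The other inhibitors and feedback genes did not share 1 direction. Of 9 on the list, 7 were tested, with 0 called higher and 1 lower in Diff cells versus U87, 1 higher and 2 lower in GSCs versus U87, and 2 higher and 0 lower in Diff cells versus GSCs. These are 14.3%, 42.9% and 28.6% of the 7, beside 12.3%, 17.1% and 8.01% of all genes tested. The share in Diff cells versus U87 was thus near the background. SMAD7, the inhibitory SMAD that TGF-β induces, had 12.01, 11.03 and 12.03 TPM in U87, 4.16, 4.87 and 4.72 TPM in GSCs, and 14.5, 15.1 and 13.7 TPM in Diff cells. Like SKIL it was lowest in GSCs, with log2 fold changes of -1.19 versus U87 (adjusted p = 6.87e-06) and 1.47 in Diff cells versus GSCs (adjusted p = 6.22e-06). PMEPA1, a TGF-β-induced inhibitor of SMAD phosphorylation, had 5.35 ± 1.18 TPM in U87, 1.03 ± 0.274 TPM in GSCs and 5.51 ± 0.215 TPM in Diff cells (-1.64 in GSCs versus U87, adjusted p = 6.31e-05, and 1.69 in Diff cells versus GSCs, adjusted p = 0.00013). The ubiquitin ligase gene SMURF2 was called lower in Diff cells versus U87 (15.8 ± 0.699 and 35.1 ± 0.98 TPM, -1.10, adjusted p = 3.75e-05). The corepressor TGIF1 was called higher in GSCs versus U87 (45.6 ± 2.16 and 17.8 ± 0.633 TPM, 1.31, adjusted p = 1.07e-06).

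TGFBI encodes a secreted matrix protein named for its induction by TGF-β, and lies at chr5:136028895-136063818. It had 806, 763 and 817 TPM in U87, 66.7, 63.0 and 68.3 TPM in GSCs, and 568, 539 and 517 TPM in Diff cells. The GSC libraries lay far below all others, and Diff cells lay below U87 with no overlap. TGFBI was 12.04-fold lower in GSCs than in U87 (-3.57, adjusted p = 3.31e-09) and 8.20-fold higher in Diff cells than in GSCs (3.02, adjusted p = 7.38e-08). Against U87, Diff cells were 1.47-fold lower (-0.55, SE 0.0547, adjusted p = 6.48e-05). TGFBI was the most abundant of the 10 RNAs in U87 and in Diff cells, while in GSCs it stood below TGFB1 and LTBP1, and there its range overlapped that of TGFBR1.

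Other target genes split the lines differently. Of 21 on the list, 16 were tested, and the called ones were 0 higher and 5 lower in Diff cells versus U87, 0 higher and 3 lower in GSCs versus U87, and 2 higher and 1 lower in Diff cells versus GSCs. These are 31.3%, 18.8% and 18.8% of the 16, beside 12.3%, 17.1% and 8.01% of all genes tested. The share in GSCs versus U87 was thus near the background for calls in either direction. All 3 of those calls were lower, however, and 7.53% of all genes were called lower there. By the adjusted p alone 14 of the 16 passed in GSCs versus U87 (2 higher and 12 lower, against 48.6% of all genes). The median log2 fold change of the 16 there was -0.59, beside 0.02 for all genes. COL1A1, a collagen I chain, came closest to TGFBI: it had 500.4, 452 and 540 TPM in U87, 27.6, 31.6 and 23.9 TPM in GSCs, and 150.5, 160 and 160 TPM in Diff cells. It was called in every comparison, at -4.12 in GSCs versus U87 (adjusted p = 2.18e-08), -1.66 in Diff cells versus U87 (adjusted p = 3.83e-06) and 2.47 in Diff cells versus GSCs (adjusted p = 1.41e-06). TPM1, a tropomyosin gene, was lower in GSCs (12.2 ± 0.787 TPM) than in U87 (25.9 ± 0.605 TPM, -1.03, adjusted p = 2.21e-06, a call lost without GSC replicate 2) and higher in Diff cells (34.4 ± 0.34 TPM) than in GSCs (1.43, adjusted p = 1.66e-06). Of its exonic bases, 21.4% overlap genes on the opposite strand.

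LOX, which crosslinks collagen, had 228 ± 10.6 TPM in U87, 172 ± 39 TPM in GSCs and 53.3 ± 2.77 TPM in Diff cells (-2.08 in Diff cells versus U87, adjusted p = 8.86e-06, and -1.65 versus GSCs, adjusted p = 6.48e-05). IL11, a cytokine, was called lower in Diff cells versus U87 (4.395 ± 0.062 and 14.4 ± 2.74 TPM, -1.50, adjusted p = 2.56e-05), with 9.27 ± 0.536 TPM in GSCs. SNAI1, a repressor of epithelial genes, was also called lower in Diff cells versus U87 (0.516 ± 0.158 and 2.34 ± 0.227 TPM, -1.14, adjusted p = 0.00258), while GSCs, at 1.07 ± 0.53 TPM, overlapped Diff cells (adjusted p = 0.157). ANGPTL4 was called lower in both derived lines, from 76.3 ± 7.14 TPM in U87 to 3.19 ± 0.445 TPM in GSCs (-4.21, adjusted p = 2.94e-08) and 1.93 ± 0.121 TPM in Diff cells (-4.72, adjusted p = 2.82e-08).

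Over the whole list of 57 other pathway genes, 43 were tested. Called genes numbered 10 in Diff cells versus U87 (3 higher and 7 lower, 23.3%), 15 in GSCs versus U87 (6 higher and 9 lower, 34.9%) and 11 in Diff cells versus GSCs (7 higher and 4 lower, 25.6%). The list's median log2 fold change was -0.09, -0.42 and -0.12, beside -0.04, 0.02 and -0.06 for all genes tested, of which 12.3%, 17.1% and 8.01% were called. The list holds genes chosen for their roles, most of them expressed, and no test of the list as a set was run.

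**Figure D5:**
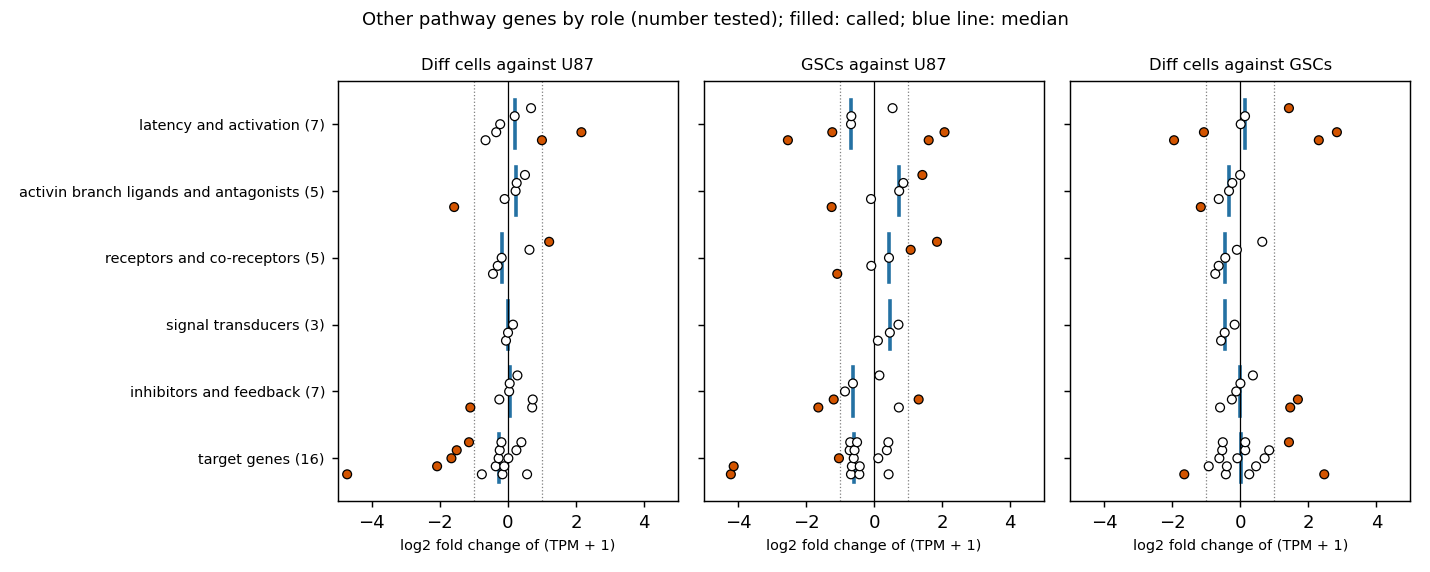
Log2 fold changes of (TPM + 1) of the 43 tested pathway genes by role in the 3 comparisons, with filled points for called genes, blue lines at the median of each role and dotted lines at a log2 fold change of 1 in either direction. In GSCs versus U87 the target genes have a median of -0.59 with 0 called higher, and COL1A1 and ANGPTL4 lie beyond -4.

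The genes most like each called gene over the 9 libraries were named by Pearson correlation of log2 values among 9621 protein-coding genes, as a description: with 3 lines, any gene with a like pattern over the 3 group means scores high. For TGFBI they were PTPRJ (r = 0.999), CENPF (0.998) and GXYLT2 (0.998), and PTPRJ, a receptor tyrosine phosphatase, had mean levels of 23.6 TPM in U87, 0.364 TPM in GSCs and 15.7 TPM in Diff cells. For TGFBR2 they were SLC39A14 (0.998), LBR (0.996) and CC2D2A (0.996). SLC39A14, a metal ion transporter, had 115 TPM in U87, 39.0 TPM in GSCs and 54.3 TPM in Diff cells. For SKIL they were MID1 (0.996), SPOCK1 (0.995) and SLMAP (0.994), and SPOCK1 had 144, 71.3 and 214 TPM in the same order. For LTBP1 they were CRKL (0.997), SPRY4 (0.996) and FNBP1 (0.995), and SPRY4, an inhibitor of receptor tyrosine kinase signaling, had 71.2, 31.0 and 21.8 TPM.

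As a description of position, each called gene, and TGFB2, was set beside its 24 nearest expressed neighbours, 12 on each side. For TGFBI, the neighbours' median log2 fold change was -0.23 in GSCs versus U87, and all 24 lay above TGFBI. Those of TGFBR2 had medians of 0.12 in Diff cells and 0.10 in GSCs versus U87, with 24 and 21 of 24 above TGFBR2. The neighbours of SKIL had a median of 0.17 in Diff cells versus GSCs, and all 24 lay below SKIL. Those of LTBP1 had a median of 0.07 in Diff cells versus U87, with 22 of 24 above it. TGFB2 differed from these: its 24 neighbours had a median of -0.70 in GSCs versus U87, beside -0.61 for TGFB2, with 14 below and 10 above it. In Diff cells versus U87 the same neighbours had a median of -0.39 and TGFB2 had 0.25. DNA copy number was not analysed here.

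Across the series, within-group correlations of log2 values were 0.956 to 0.971, and GSC replicate 3 was the library farthest from its group. RNA of mitochondrial genes took 25.9 to 31.8% of TPM and RN7SL1 5.73 to 9.79%, and the values without them are among the other scalings. Of 5 stemness markers, NES was highest in U87 (33.03 TPM, 22.6 in GSCs and 13.5 in Diff cells). OLIG2 had means of 7.27, 8.75 and 5.37 TPM in U87, GSCs and Diff cells, and the U87 and GSC libraries overlapped. FABP7, SOX2 and PROM1 were higher in every GSC library than in any U87 or Diff library. Their means in U87, GSCs and Diff cells were 0.731, 4.91 and 2.86 TPM for FABP7, 0.0383, 0.879 and 0.153 TPM for SOX2, and 0.171, 0.507 and 0.0236 TPM for PROM1, so SOX2 and PROM1 were under 1 TPM in all libraries. The sum of the 5 markers, most of it NES, was 39.1 to 43.1 TPM in U87, 35.5 to 39.9 TPM in GSCs and 21.3 to 22.7 TPM in Diff cells. The summed level of 4 neuronal markers was 26.5 to 27.5 TPM in Diff cells and 10.2 to 13.7 TPM in the other lines, with DCX and RBFOX3 under 0.2 TPM. Most of the sum, and of its difference, was MAP2, with means of 7.95, 8.22 and 21.7 TPM in U87, GSCs and Diff cells. TUBB3 had 3.74, 4.66 and 5.22 TPM in the same order and was called in no comparison. Of 3 astrocyte markers, GFAP had means of 2.29, 0.809 and 0.909 TPM and S100B of 0.101, 0.134 and 0.617 TPM in the same order, with S100B higher in every Diff library than in any U87 library, and AQP4 was at or near 0. Immune markers summed to 1.501 to 3.02 TPM and were almost only CD68, with PTPRC under 0.2 TPM. Epithelial markers summed to 1.08 to 6.56 TPM, and the highest value rests on KRT5 in Diff replicate 1 (5.54 TPM, against 0.0661 and 0.0334 TPM in the other Diff libraries). The part of any of these in the values of the TGF-β genes was not tested.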

How the data were processed

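RNA-seq was performed on 9 libraries, 3 each of U87, GSCs and Diff cells. The labels name rRNA removal, a directional library kit and paired-end sequencing, whereas the methods of the study describe mRNA enrichment with oligo(dT), which could change the shares of RN7SL1 and other RNAs in the TPM total. The submitters' processing notes name FastQC 0.11.9, Trimmomatic 0.39, HISAT2 2.2.1, featureCounts 2.0.5, R 4.2.0 and GRCh38. The annotation, strand setting and any filter are not given in the sources used here. The deposited values are log2(TPM + 1) for each gene in each library, and back-transformed values summed to 1000000 in each library. Depth is not kept in TPM, and precision was judged only by the spread between 3 libraries.

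A linear model of 3 groups was fitted with limma 3.58.1 (lmFit and trended eBayes, R 4.3.3) to 22909 of 60606 genes, those whose mean TPM exceeded 1, with Benjamini-Hochberg adjustment per comparison. The procedure was also run on simulated data, with genes drawn independently and the changed genes shifted by more than the limit on size. That run does not bear on calls near the limit. Single quantities were compared by two-sided exact permutation tests in Python 3.11.15. Coordinates and exon overlaps are from GENCODE 29, promoter sequences from RefSeq. The 10 genes, the pathway list and the marker lists were chosen with earlier results of these data known. Named besides the 10 genes were, for each role and comparison, up to 5 called pathway genes with the largest change and any gene that a count of 5 or fewer rests on, and for each called gene the 3 most correlated protein-coding genes. Exceptions are stated where they occur, and 1 pathway gene is not reported here by name. Alternatives covered the pseudocount (0.1), the filter (none, or 5 in place of 1), untrended limma, the 2 groups compared alone, other scalings, thresholds, a replicate block and the omission of each library.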

Additional observations from a re-analysis of the deposited data

How the results depend on the processing

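In Diff cells versus U87 the 2 calls among the 10 genes became 1 (LTBP1 lost) under quantile normalization, median-ratio scaling or omission of mitochondrial genes and RN7SL1, and ranged from 1 to 2 when libraries were left out. In GSCs versus U87 the 2 calls became 3 (SKIL gained) under quantile normalization and without GSC replicate 3. At a log2 limit of 0.58 the 2 calls became 3 in Diff cells versus U87 (SKIL gained). At that limit they became 7 in GSCs versus U87 and 4 in Diff cells versus GSCs. By the adjusted p alone they became 6, 9 and 7 in Diff cells versus U87, GSCs versus U87 and Diff cells versus GSCs. The pathway list's 10, 15 and 11 calls, of 43 genes tested, became 16, 28 and 19 at the lower limit and 25, 37 and 27 by the adjusted p alone. Of all genes tested, 39.4%, 48.6% and 34.8% passed by the adjusted p alone in the same order. The share of all genes at the lower limit was not computed, so the counts at that limit have no background beside them. The summed ligand RNA of Diff cells exceeded U87 by 104 TPM, and by 114 TPM with median-ratio scaling. Sign changes were limited to differences near 0: TGFB3 in Diff cells versus U87 (-0.16 to 0.026 with a library left out), TGFBR1 in Diff cells versus GSCs (0.013 with median ratios, 0.020 without mitochondrial genes and RN7SL1, -0.12 to 0.11 with a library left out) and SMAD3 in Diff cells versus U87 (0.030, 0.043 and -0.013 to 0.014 in the same order). The cause was not tested. Replicate numbers did not pair the libraries: deviations of same-numbered libraries correlated at -0.042 to 0.049, and with the number as a replicate block the counts of calls were 2, 2 and 2 among the 10 genes and 10, 15 and 11 on the pathway list. Without counts, detection limits could not be set for low genes such as INHBA.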
